A study of Mus musculus with 9 samples.

Results

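The mitochondrial respiratory chain consists of 4 electron transfer complexes (I to IV) and the ATP synthase (complex V). Complex I oxidises NADH, complex II (succinate dehydrogenase) oxidises succinate, complex III passes electrons from coenzyme Q to cytochrome c, and complex IV reduces oxygen, while complex V uses the proton gradient to make ATP. Most subunits are encoded in the nucleus and imported, whereas 13 are encoded by the mitochondrial genome and transcribed inside the organelle, so that every complex except complex II needs both genomes. In hepatocytes, which are rich in mitochondria, the reactive metabolite of acetaminophen (APAP) binds mitochondrial proteins, and mitochondrial dysfunction is a known early step of the injury.

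The subunit mRNAs were chosen by gene symbol: protein-coding genes of the table whose names begin with Ndufa, Ndufb, Ndufc, Ndufs or Ndufv and a digit, Uqcr, Cox4 to Cox8, Atp5, mt-Nd, mt-Co, mt-Cytb or mt-Atp, or are Sdha to Sdhd. The rule took 98 of the 54532 genes, 85 nuclear and 13 mitochondrial. Complex I had 35 nuclear and 7 mitochondrial genes, complex II had 4 nuclear genes, complex III had 8 and 1, complex IV had 20 and 3, and complex V had 18 and 2. Ndufa4 and Ndufa4l2 were counted with complex IV, where the Ndufa4 protein resides. The symbols miss some true subunits, among them Ndufab1 (the acyl carrier protein of complex I) and Cyc1 (cytochrome c1 of complex III). They also include Atp5s, an accessory factor of complex V.

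Livers of young male C57BL/6 mice were sequenced in 3 groups of 3 libraries: NC, labelled as control; APAP, taken 6 h after 500 mg/kg acetaminophen given into the peritoneum after an overnight fast; and AMSC, taken 6 h after the same dose followed directly by adipose-derived mesenchymal stem cells from inguinal fat of C57BL/6 mice, infused into the tail vein. APAP and AMSC mice therefore share the drug, its dose and the time, and the study's methods state the overnight fast for all animals, without saying whether NC mice received vehicle. NC replicate 3 carries another date in its title than the other libraries. The question addressed here is how far the mRNAs of each complex, and of each genome, differed between the groups.

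The libraries held 13418921 to 16210930 reads on genes, recovered from the FPKM values (fragments per kilobase), a unit that allows levels to be compared between genes. The library scale of these values matched median-of-ratios size factors of the recovered reads (relative spread 8.87e-12). Such a factor is the median, over genes, of a library's reads relative to the average library, and not its read total. Divided by the reads on genes, the scale ranged from 0.909 in APAP replicate 2 to 1.16 in NC replicate 2. The 9 hepatocyte markers had the highest sum of the marker lists in every library, at 48252 to 52423 FPKM in NC, 66101 to 79311 in APAP and 61919 to 64278 in AMSC. These ranges did not overlap. In APAP against NC 4 of the 9 markers rose, where 12.8% of all genes tested rose. All 9 log2 fold changes were positive, with a median of 0.51. Summed FPKM of 10 macrophage markers ranged from 107.8 to 205.0 in NC, with NC replicate 3 highest, from 156.4 to 402.0 in APAP, with replicates 1 and 3 highest, and from 96.7 to 158.3 in AMSC. The 7 erythrocyte markers summed to 134.5 to 254.1 FPKM in NC, 305.9 to 1406 in APAP and 183.2 to 312.0 in AMSC. The 8 neutrophil markers summed to 0.355 to 1.91 FPKM in NC, 7.69 to 34.8 in APAP and 4.31 to 6.08 in AMSC. Elane, Mpo and Ly6g were at 0.164 FPKM or less in every library. The part of these cells in the results that follow was not tested. In whole tissue, fewer cells of a type and less RNA per cell cannot be told apart.

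A first property of the mitochondrial mRNAs lies in their sequence. Part of the mouse mitochondrial genome is also present on chromosome 1 as a nuclear copy, and 6 annotated genes of that copy (GRCm38, minus strand) were aligned with their mitochondrial counterparts. Gm28661 (1:24614885-24615565) matched mt-Co2 over 681 bases, Gm10925 (1:24613974-24614651) matched mt-Atp6 over 678 bases, Gm28437 (1:24613189-24613971) matched mt-Co3 over 783 bases and Gm28439 (1:24611535-24612410) matched mt-Nd4 over 876 bases, all with 0 mismatches. Gm28438 matched mt-Nd3 over 345 bases with 1 mismatch, T3C, counted from 1 at the first base of mt-Nd3. Gm29216 matched mt-Co1 over 492 bases with 6 mismatches, a cluster at positions 1056 to 1066. Stretches of the last 2 copies are shown beside the mitochondrial gene, with the differing bases in capitals, because these few bases are all that tells the nuclear copy from the mitochondrial mRNA there.
mt-Nd3 (MT:9459-9518): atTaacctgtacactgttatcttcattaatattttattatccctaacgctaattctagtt
Gm28438 (1:24613060-24613119): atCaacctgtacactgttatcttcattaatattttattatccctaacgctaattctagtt
mt-Co1 (MT:6381-6436): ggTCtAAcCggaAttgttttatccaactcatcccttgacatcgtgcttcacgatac
Gm29216 (1:24616142-24616197): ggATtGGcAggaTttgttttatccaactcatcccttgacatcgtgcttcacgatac

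The share of each mRNA's 50-base words that also occur in another annotated transcript divided the mitochondrial genes. It was 100% for mt-Co2, 99.9% for mt-Co3, 99.5% for mt-Atp6, 98.8% for mt-Nd4l and 98.0% for mt-Nd3. It was 62.2% for mt-Nd4 and 51.1% for mt-Co1, then 8.19% for mt-Nd2 and 7.61% for mt-Nd5, and 0 for mt-Nd1, mt-Nd6, mt-Cytb and mt-Atp8. The 5 genes above 90% had means over all libraries of 108.4 to 480.3 FPKM. The 5 genes under 10% other than mt-Atp8 had means of 2461 to 9170 FPKM. mt-Atp8 was the lowest of the 13 although it shares no word with an annotated transcript, and it begins in the 230 bases between mt-Co2 and mt-Atp6, whose copies on chromosome 1 are 233 bases apart, and ends at position 7969, past the start of mt-Atp6 at 7927. How reads that match both places were assigned is not given in the sources used here, so the levels of mt-Co2, mt-Co3, mt-Atp6, mt-Atp8, mt-Nd3, mt-Nd4l, mt-Nd4 and mt-Co1 are uncertain, and the part that shared sequence has in them was not tested.

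**Figure D1:**
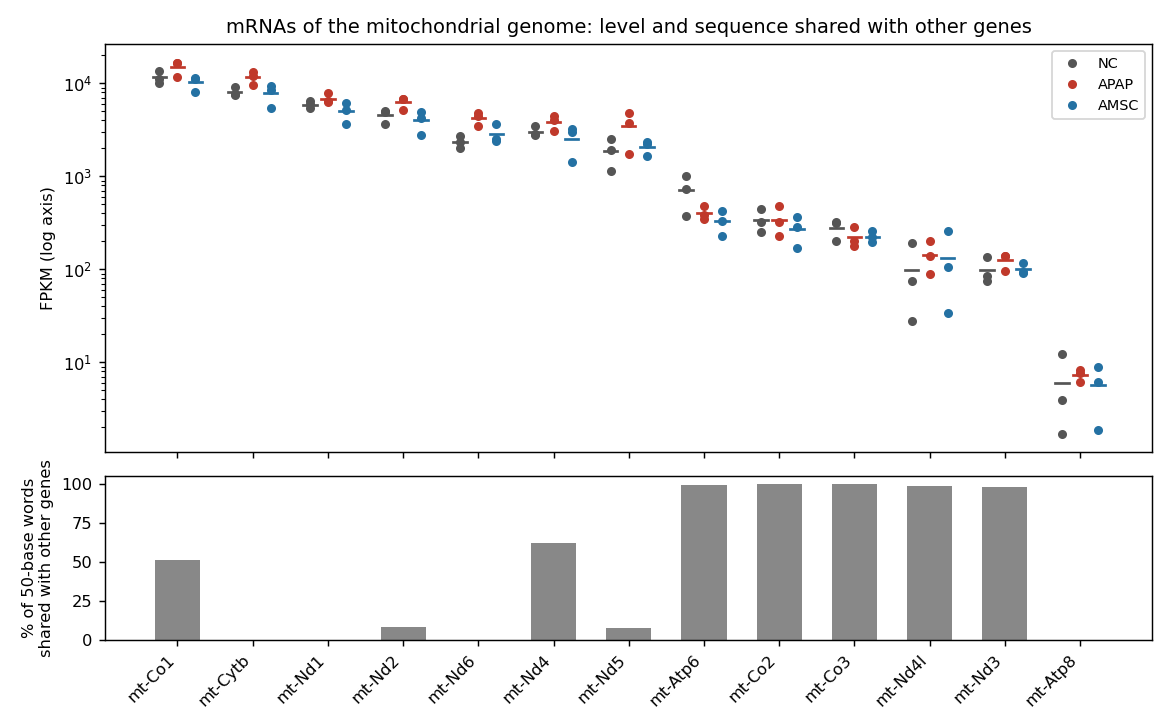
The upper panel plots FPKM (log axis) of the 13 mitochondrial mRNAs in each library (points, coloured by group, with the group mean as a line), and the lower panel the percentage of 50-base words that each shares with another annotated transcript. The 5 genes with over 90% shared words lie at means of 108.4 to 480.3 FPKM, below the 7 genes to their left.

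The mRNAs of the mitochondrial genome summed to far more than those of the nucleus. They summed to 44505, 35471 and 36657 FPKM in NC replicates 1 to 3, to 56269, 58931 and 41996 FPKM in APAP replicates 1 to 3, and to 42241, 38203 and 26207 FPKM in AMSC replicates 2 to 4. APAP replicates 1 and 2 were the highest of all libraries and AMSC replicate 4 the lowest, and APAP replicate 3 lay within the NC range. The nuclear subunits summed to 7397, 7320 and 8526 FPKM in NC, to 7122, 8493 and 10206 FPKM in APAP, and to 9095, 7492 and 8060 FPKM in AMSC. The groups overlapped for both sums. The ratio of the mitochondrial to the nuclear sum was 5.05 ± 0.877 in NC, 6.32 ± 1.97 in APAP and 4.33 ± 0.963 in AMSC (mean ± SD, n = 3 libraries each), and the ranges overlapped.

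The group comparisons were fitted with limma on log2(FPKM + 1), over the 9699 genes that averaged 1 FPKM or more. Of the 98 subunit genes, 91 passed that filter (78 nuclear and all 13 mitochondrial). The 7 others were the isoforms Cox4i2, Cox6a2, Cox6b2, Cox7b2, Cox8b and Cox8c and a second identifier of Atp5o. The comparisons share libraries: APAP is compared with NC, AMSC with APAP, and AMSC with NC. A gene was called when its adjusted p, by limma with Benjamini-Hochberg adjustment over all genes tested, was at most 0.05.

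Between APAP and NC, 25.9% of all genes tested were called (2514 of 9699), and of the 91 subunit mRNAs 1 was called, mt-Nd6, and 0 of the 78 nuclear ones (4 and 1 at an unadjusted p under 0.05, where 3795 of all genes tested were). The median log2 fold change was 0.13 for nuclear subunits (0.51 for the hepatocyte markers), 0.36 for mitochondrial mRNAs and -0.004 for all genes tested, and 67 of the 78 nuclear values had a positive sign. The groups did not overlap for 8 of the 91 subunit mRNAs, against 43.2% of all genes tested, with 7 higher in APAP (20.9% of all genes tested) and 1 lower (22.3%). A called change of at least 2-fold was found for 0 of the 91 and for 7.9% of all genes tested. The intervals limit what the 3 libraries a group can show: the 95% interval of the fold change lay within 2-fold either way for 76 of 78 nuclear and 8 of 13 mitochondrial mRNAs, and within 1.5-fold for 46 and 1. With the replicate number as a block, 2 subunit mRNAs were called, mt-Nd6 and mt-Nd5 (log2 fold change 0.83, adjusted p = 0.0115 by limma).

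**Figure D2:**
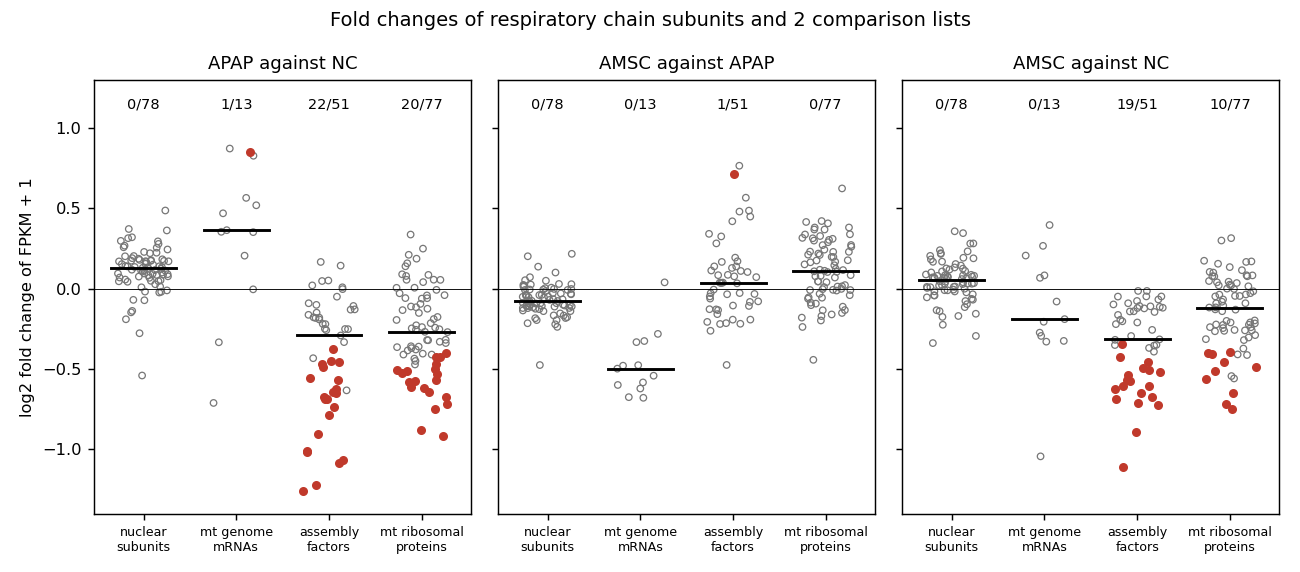
Each point is the log2 fold change of FPKM + 1 of 1 gene, in 3 panels for the 3 comparisons and in columns for nuclear subunits, mitochondrial mRNAs, assembly factors and mitochondrial ribosomal proteins. Filled points have an adjusted p of at most 0.05 by limma, lines are medians, and the counts at the top are called over tested genes, with 0 of 78 nuclear subunits and 22 of 51 assembly factors called for APAP against NC.

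mt-Nd6 encodes the ND6 subunit of complex I and is the only protein-coding gene on the light strand of the mitochondrial genome (MT:13552-14070, minus strand). The level of mt-Nd6 was 2347, 2001 and 2711 FPKM in NC, 4446, 4829 and 3472 FPKM in APAP, and 3673, 2532 and 2383 FPKM in AMSC. All APAP libraries lay above all NC libraries, while AMSC replicate 2 lay above the lowest APAP library and the other 2 AMSC libraries within the NC range. The log2 fold change of APAP against NC was 0.85 ± 0.18 (SE, adjusted p = 0.0127 by limma). It was 0.96 (adjusted p = 0.0192) without NC replicate 3, but the call was lost without APAP replicate 2 (0.75, adjusted p = 0.0536 by limma). AMSC against APAP gave -0.58 ± 0.21 (adjusted p = 0.180 by limma), and AMSC against NC gave 0.27 ± 0.20 (adjusted p = 0.359 by limma). The end of mt-Nd6 overlaps mt-Nd5, which lies on the opposite strand and ends at position 13565, and whether the counting used strand is not given, so reads of the 2 strands may not be told apart in this stretch or along the antisense transcript.

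The other complex I mRNAs of the mitochondrial genome all had positive log2 fold changes in APAP against NC, and none passed the test. mt-Nd2 was at 5002, 3675 and 4907 FPKM in NC and at 6789, 6862 and 5137 FPKM in APAP, which did not overlap (log2 fold change 0.47 ± 0.18, adjusted p = 0.102 by limma). mt-Nd5 was at 2529, 1937 and 1154 FPKM in NC and at 4770, 3776 and 1754 FPKM in APAP. Its libraries overlapped, and replicate 3 was the lowest of both groups. Its log2 fold change was 0.83 ± 0.41 (adjusted p = 0.179 by limma), and it was 1.25 without APAP replicate 3 (adjusted p = 0.0400), 0.51 without NC replicate 3 (adjusted p = 0.415) and 0.53 without APAP replicate 1 (adjusted p = 0.373, by limma). mt-Nd1 gave 0.21 ± 0.15, mt-Nd4 0.35 ± 0.18, mt-Nd3 0.36 ± 0.25 and mt-Nd4l 0.87 ± 0.63 on the log2 scale. mt-Nd4l had the widest spread of all, with NC libraries at 193.7, 75.2 and 27.6 FPKM.

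mt-Cytb encodes cytochrome b, the mitochondrial subunit of complex III. It was at 9115, 7699 and 7412 FPKM in NC, 12006, 13224 and 9641 FPKM in APAP, and 9445, 8501 and 5486 FPKM in AMSC. APAP did not overlap with either other group, and the fold changes missed the threshold (APAP against NC 0.52 ± 0.17, adjusted p = 0.0559; AMSC against APAP -0.60 ± 0.24, adjusted p = 0.208, by limma). Of the 3 catalytic subunits of complex IV, mt-Co1 had the highest level of the 13 mRNAs, with the limit of its shared sequence, at 13707, 11071 and 10054 FPKM in NC, 16711, 16421 and 11558 FPKM in APAP and 11321, 11238 and 8088 FPKM in AMSC. All AMSC libraries lay below all APAP libraries (log2 fold change -0.54 ± 0.22, adjusted p = 0.210 by limma). mt-Co2 and mt-Co3 gave 0.00 ± 0.30 and -0.33 ± 0.24 in APAP against NC.

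The 2 mitochondrial subunits of complex V are mt-Atp6 and mt-Atp8. mt-Atp6, which forms the proton path of the ATP synthase, was at 1015, 375.0 and 738.8 FPKM in NC, 381.6, 481.3 and 348.2 FPKM in APAP, and 425.7, 329.0 and 228.3 FPKM in AMSC. The NC libraries differed among themselves by more than the group means did, and NC replicate 2 lay within the APAP range. AMSC against NC was -1.04 ± 0.36 on the log2 scale (adjusted p = 0.0690 by limma), and it was -1.44 without NC replicate 2 (adjusted p = 0.0123), -0.73 without NC replicate 1 (adjusted p = 0.192), -0.75 with the chromosome 1 copies added (adjusted p = 0.144) and -0.49 with the replicate block (adjusted p = 0.445, by limma). APAP against NC was -0.71 ± 0.34 (adjusted p = 0.164 by limma), -1.11 without NC replicate 2 (adjusted p = 0.0208 by limma), -0.40 without NC replicate 1 (adjusted p = 0.434 by limma), -0.41 with the chromosome 1 copies added (adjusted p = 0.348 by limma) and -1.02 with all libraries set to the same FPKM sum (adjusted p = 0.0317 by limma). mt-Atp8 lay between 1.71 and 12.3 FPKM in all libraries and gave 0.57 ± 0.50 in APAP against NC.

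AMSC against APAP called 3.78% of all genes tested (367 of 9699) and 0 of the 91 subunit mRNAs by limma. At an unadjusted p under 0.05 there were 4, all mitochondrial: mt-Nd2 (log2 fold change -0.67), mt-Cytb (-0.60), mt-Nd6 (-0.58) and mt-Co1 (-0.54). The median was -0.50 for the mitochondrial and -0.08 for the nuclear mRNAs, against 0.01 for all genes tested, and 12 of the 13 mitochondrial values were negative, with mt-Co3 at 0.04. The groups did not overlap for 7 of the 91, where 27.0% of all genes tested did not, and all 7 were lower in AMSC (12.4% of all genes tested, with 14.6% higher). A called change of at least 2-fold was found for 0 of the 91 and for 1.96% of all genes tested, and 2.14% of all genes tested were called lower. AMSC against NC called 26.0% of all genes tested (2521 of 9699) and again 0 of the 91, with 5 at an unadjusted p under 0.05 (mt-Atp6, Cox4i1, Atp5d, Ndufb10 and Atp5s). The median was 0.05 for nuclear and -0.19 for mitochondrial mRNAs, and the groups did not overlap for 9 of the 91, against 43.5% of all genes tested, with 5 higher in AMSC (23.2% of all genes tested) and 4 lower (20.3%). A called change of at least 2-fold was found for 0 of the 91 and for 6.01% of all genes tested. Without AMSC replicate 4, the lowest library for the mitochondrial sum, the mitochondrial median was 0.03 for AMSC against NC and -0.30 for AMSC against APAP.

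The nuclear subunits differed between libraries of a group by more than the group means did. Averaged over the 78 mRNAs, the log2 difference from the NC mean was -0.07, -0.08 and 0.15 in NC, -0.14, 0.11 and 0.37 in APAP, and 0.21, -0.08 and 0.01 in AMSC. NC replicate 3 held the highest value of its group for 67 of the 78 mRNAs, APAP replicate 3 for 71 and AMSC replicate 2 for 61. APAP replicate 1 was below the NC mean for 51 mRNAs, and APAP replicate 3 above it for 73. The median within-group SD of the nuclear subunits on the log2 scale was 0.16 in NC, 0.26 in APAP and 0.17 in AMSC, against 0.14, 0.20 and 0.15 for all genes tested. APAP replicate 3 was also the library with the highest summed macrophage and erythrocyte markers. APAP replicate 1, the lowest of its group for 64 of the 78 mRNAs, had the highest summed neutrophil, endothelial and stromal markers. These sums were 34.8, 76.2 and 58.6 FPKM, against 16.5, 47.3 and 49.8 FPKM in APAP replicate 3. The part of these cells in the spread was not tested.

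**Figure D3:**
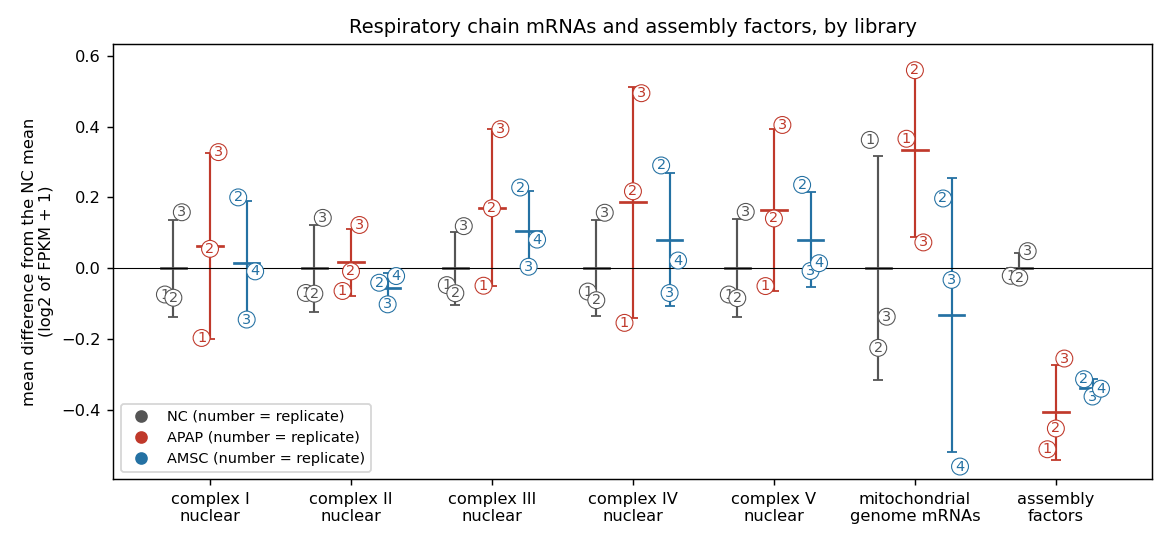
For the nuclear subunits of complexes I to V, the mitochondrial mRNAs and the assembly factors, the plot gives the mean log2 difference from the NC mean in each library (circled replicate numbers), with the group mean and SD as bars. APAP replicate 3 is the highest library for the nuclear subunits of complexes I, III, IV and V, and the assembly factors of all APAP and AMSC libraries lie at -0.26 or lower.

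Among the nuclear subunits, transcript length moved with these differences in some libraries only. Nuclear subunits are short, with a median length of 1631 bases against 3747 for all genes tested. In APAP replicate 1, the 39 subunits up to that median averaged -0.25 and the 39 longer ones -0.02 on the log2 scale, and across the 78 genes Pearson's r between the difference and log2 length was 0.53. In APAP replicate 3 the shorter and the longer subunits averaged 0.43 and 0.32, and r was -0.32. In APAP replicate 2 r was -0.08, in NC it was 0.03, -0.09 and 0.03, and in AMSC -0.16, 0.30 and 0.12. Over all genes tested, r was 0.25, 0.14 and -0.30 in NC, 0.08, -0.04 and -0.18 in APAP, and -0.12, 0.04 and -0.003 in AMSC. These correlations are across genes of 1 library, which are not independent replicates. The part of transcript length in the spread was not tested.

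**Figure D4:**
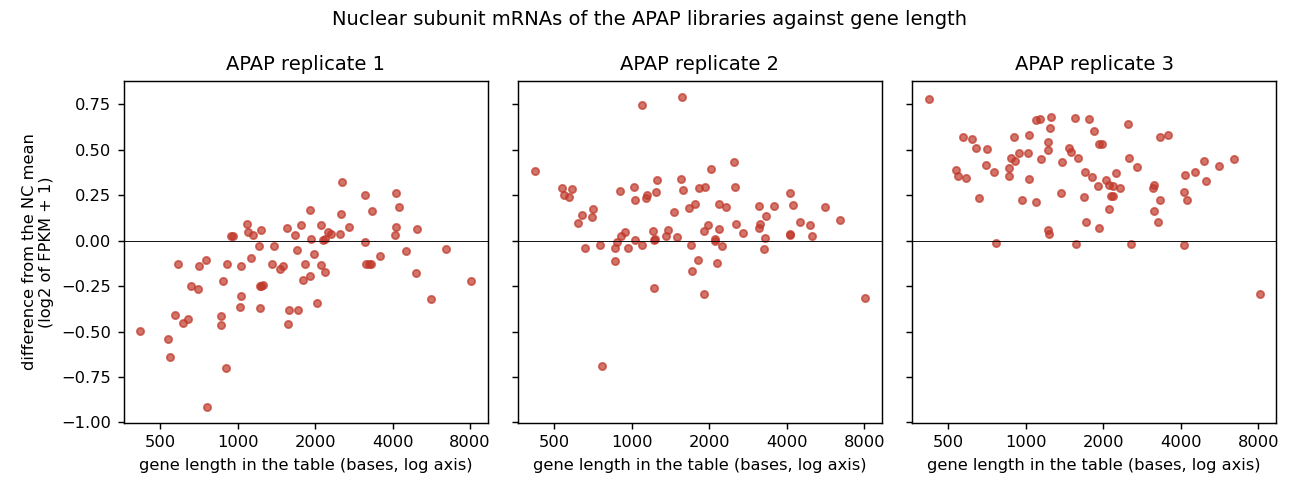
Each point is 1 of the 78 nuclear subunit mRNAs, with its length (bases, log axis) and its log2 difference from the NC mean in APAP replicates 1, 2 and 3. Short mRNAs lie lowest in replicate 1 (r = 0.53 across genes) and highest in replicate 3 (r = -0.32).

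Complex by complex, the nuclear medians of APAP against NC were 0.09 for I, 0.00 for II, 0.15 for III, 0.18 for IV and 0.17 for V on the log2 scale, and none of the nuclear genes was called. The 7 nuclear core subunits of complex I, which carry the flavin and iron-sulfur clusters, had a median of 0.05 and the 28 accessory subunits 0.10. In complex I, Ndufa2 was the most abundant nuclear subunit at a mean of 180.7 FPKM and Ndufb2 the lowest at 1.53 FPKM. The largest negative value was that of the accessory subunit Ndufb3, singled out after its values were seen, at 55.0, 54.6 and 61.0 FPKM in NC and 29.6, 34.8 and 56.3 FPKM in APAP. APAP replicate 3 lay in the NC range (log2 fold change -0.54 ± 0.23, adjusted p = 0.118 by limma). The core subunit Ndufs1, also named after the fact, was the only nuclear member whose APAP libraries all lay below NC, at 14.0, 12.4 and 16.2 FPKM in NC and 12.0, 11.2 and 11.4 FPKM in APAP (-0.28 ± 0.13, adjusted p = 0.152 by limma).

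Complex II, the complex with no mitochondrial gene, had the nuclear median closest to 0 in APAP against NC. Sdha, the flavoprotein that oxidises succinate, was at 108.5, 102.5 and 112.6 FPKM in NC, 113.4, 110.2 and 106.2 FPKM in APAP, and 90.4, 100.1 and 99.8 FPKM in AMSC. The AMSC libraries lay below all others, with -0.16 ± 0.10 against NC (adjusted p = 0.294 by limma) and -0.18 ± 0.12 against APAP (adjusted p = 0.425 by limma). The iron-sulfur subunit Sdhb and the membrane anchors Sdhc and Sdhd gave 0.13 ± 0.16, -0.02 ± 0.12 and -0.07 ± 0.14 in APAP against NC, and all 4 intervals lay within 1.5-fold. In this complex Sdhd had the highest mean at 179.2 FPKM and Sdhc the lowest at 50.8 FPKM.

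In complex III, all 8 nuclear values of APAP against NC were positive, from 0.05 for the Rieske protein Uqcrfs1, which was the most abundant subunit at a mean of 218.0 FPKM, to 0.31 for the hinge protein Uqcrh. The core protein Uqcrc2 was the lowest of the complex at 73.3 FPKM. The 17 nuclear mRNAs of complex V that were tested were likewise all positive, from 0.07 for Atp5k to 0.32 for Atp5e. The most abundant was Atp5a1, the alpha subunit of the catalytic F1 head, at 335.7, 328.5 and 373.6 FPKM in NC, 411.1, 394.7 and 386.7 FPKM in APAP and 372.9, 387.2 and 404.3 FPKM in AMSC (APAP against NC 0.20 ± 0.12, adjusted p = 0.251 by limma). The 5 F1 subunits had a median of 0.20 and the other 12 of 0.14. Atp5s, the lowest, was at 2.53, 2.04 and 2.22 FPKM in NC and 3.24, 3.43 and 2.77 FPKM in AMSC (0.35 ± 0.12, adjusted p = 0.0614 by limma).

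These positive signs depend on the scale. With all libraries set to the same FPKM sum, the median of all genes was -0.26 in APAP against NC, and the nuclear median became -0.17 and the mitochondrial median 0.055. With quantile normalization the all-gene median was -0.06, and the nuclear median became -0.03 and the mitochondrial one -0.03. On all 3 scales the nuclear median lay above the median of all genes, and with equal sums its sign turned. mt-Nd6 was 0.54 (adjusted p = 0.0356 by limma) with equal sums and 0.39 (adjusted p = 0.0843 by limma) with quantile normalization. Leaving out APAP replicate 3 brought the nuclear median to 0.01, and leaving out APAP replicate 1 brought it to 0.25.

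Several subunits of complex IV exist as isoforms, of which liver uses the ubiquitous ones. Cox4i1 had a mean of 317.2 FPKM and its hypoxia-related isoform Cox4i2 of 0.123 FPKM, with 13 reads over all 9 libraries. Cox6a1 was the most abundant nuclear subunit of all complexes at 548.9 FPKM, against 7 reads for the muscle isoform Cox6a2. Cox8a stood at 390.5 FPKM with 2 reads for Cox8b and 3 for Cox8c, Cox6b1 at 227.4 FPKM with 48 reads for Cox6b2, and Cox7b at 118.2 FPKM with 0 reads for Cox7b2. Cox7a2, the liver form, was at 146.4 FPKM, its relative Cox7a2l at 108.6 FPKM and the muscle form Cox7a1 at 1.64 FPKM, with 6 to 18 reads a library. Ndufa4 was at 206.7 FPKM and Ndufa4l2, a hypoxia-inducible relative, at 1.28 FPKM with 7 to 35 reads a library.

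None of the tested isoforms was called in any of the comparisons. Ndufa4l2 was at 0.383, 0.898 and 1.86 FPKM in NC and 1.02, 2.28 and 2.11 FPKM in APAP (0.49 ± 0.29, adjusted p = 0.258 by limma). Cox4i1 was at 243.8, 253.0 and 299.6 FPKM in NC, 277.7, 334.7 and 423.5 FPKM in APAP, and 379.1, 296.6 and 346.4 FPKM in AMSC. The NC replicate 3 library overlapped both other groups (AMSC against NC 0.36 ± 0.14, adjusted p = 0.0918 by limma). Of the nuclear subunits, 45 of 85 identifiers share at least 1 50-base word, on either strand, with another transcript. Of the 85, 9 share 25% or more, among them Ndufs3 (39.7%), Ndufb4 (37.0%) and Atp5o (34.9%). The transcript that shares most is a processed pseudogene for Ndufs3 and Ndufb4 and an antisense transcript for Atp5o. How reads in such stretches were assigned is not given, so the levels of these genes are uncertain.

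**Figure D5:**
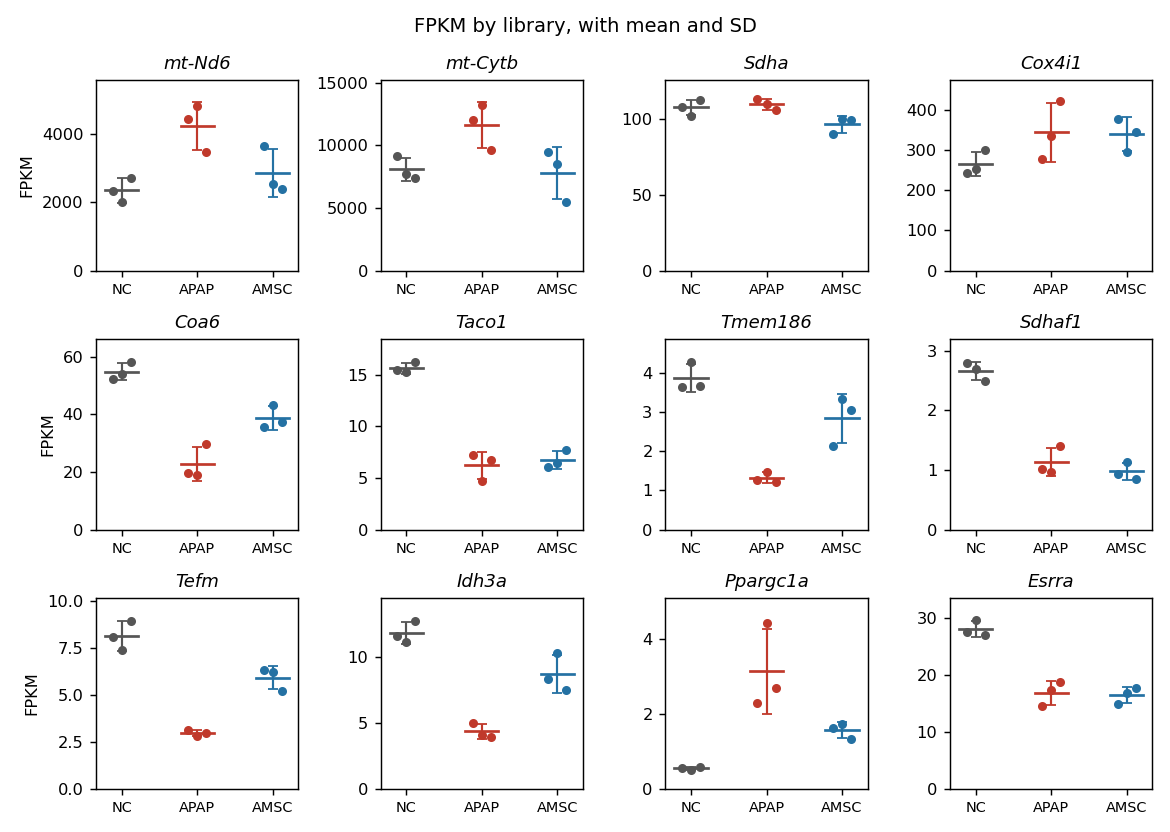
FPKM of 12 genes in each library (points), with the group mean and SD, on axes that start at 0. The APAP and NC libraries do not overlap for mt-Nd6, mt-Cytb, Coa6, Taco1, Tmem186, Sdhaf1, Tefm, Idh3a, Ppargc1a and Esrra, and they overlap for Sdha and Cox4i1.

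Assembly factors insert cofactors, join modules or escort subunits and are not part of the finished enzyme. Of 51 assembly factors tested for complexes I to V, 22 fell and 0 rose in APAP against NC, where 13.1% of all genes tested fell, with a median log2 fold change of -0.29. The falls came from each complex: 8 of 18 factors of complex I, 2 of 4 of complex II, 2 of 5 of complex III, 9 of 21 of complex IV and 2 of 4 of complex V (Tmem70 is on 2 lists). In AMSC against NC, 19 of 51 fell and 0 rose, where 11.9% of all genes tested fell, and the median was -0.32. In AMSC against APAP 1 rose and 0 fell, where 1.64% of all genes tested rose.

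Coa6, a copper-handling factor of complex IV, was at 52.3, 54.0 and 58.1 FPKM in NC, 19.8, 18.8 and 29.7 FPKM in APAP, and 35.5, 43.3 and 37.3 FPKM in AMSC. The 3 groups did not overlap, and the log2 fold change was -1.26 ± 0.18 for APAP against NC (adjusted p = 0.00286 by limma), -0.49 ± 0.11 for AMSC against NC (adjusted p = 0.0141 by limma) and 0.76 ± 0.19 for AMSC against APAP (adjusted p = 0.0725 by limma). Taco1, the translational activator of mt-Co1, was at 15.5, 15.2 and 16.2 FPKM in NC, 7.22, 4.73 and 6.73 FPKM in APAP, and 6.10, 6.45 and 7.70 FPKM in AMSC. APAP and AMSC overlapped here, and both fell against NC, with log2 fold changes of -1.22 ± 0.16 (adjusted p = 0.00182 by limma) and -1.11 ± 0.11 (adjusted p = 0.000372 by limma). Tmem177 and Coa4, also factors of complex IV, fell by 1.08 and 1.02 on the log2 scale in APAP against NC.

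Of the complex I factors, Tmem186 was at 3.64, 4.26 and 3.65 FPKM in NC, 1.28, 1.48 and 1.21 FPKM in APAP, and 2.14, 3.34 and 3.04 FPKM in AMSC. It fell in APAP against NC (-1.06 ± 0.12, adjusted p = 0.000998 by limma) and was the one assembly factor that rose in AMSC against APAP (0.71 ± 0.15, adjusted p = 0.0474 by limma), a call that 10 of 19 alternative settings did not keep. Ndufaf4 fell by 1.01, Tmem126b by 0.90 and Timmdc1 by 0.65 in APAP against NC. Sdhaf1, which helps load iron-sulfur clusters into Sdhb, was at 2.79, 2.69 and 2.50 FPKM in NC, 1.02, 0.972 and 1.40 FPKM in APAP and 0.936, 1.14 and 0.855 FPKM in AMSC, so that both treated groups lay below NC and overlapped each other. For complexes III and V, Uqcc1 fell by 0.57, Bcs1l by 0.47, Atpaf1 by 0.73 and Tmem70 by 0.63 in APAP against NC.

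Of 27 genes tested for replication, transcription and processing of mitochondrial RNA, 8 fell and 0 rose in APAP against NC (median -0.30), where 13.1% of all genes tested fell. In AMSC against NC 4 fell and 0 rose (median -0.13), a share near the 11.9% of all genes tested that fell. Between AMSC and APAP, 1 of the 27 was called, higher in AMSC (median 0.14), where 1.64% of all genes tested rose. The libraries of these 2 groups did not overlap for 8 of the 27, all higher in AMSC, where 14.6% of all genes tested were higher. Tefm, the elongation factor of mitochondrial transcription, was at 8.09, 7.37 and 8.92 FPKM in NC, 3.13, 2.83 and 2.99 FPKM in APAP, and 6.30, 6.22 and 5.21 FPKM in AMSC. The groups did not overlap, and Tefm fell in APAP (-1.19 ± 0.11, adjusted p = 0.000531 by limma) and was higher in AMSC than in APAP (0.79 ± 0.12, adjusted p = 0.0187 by limma). The latter call was lost without APAP replicate 3 (adjusted p = 0.0610), AMSC replicate 2 (0.0768) or AMSC replicate 3 (0.0777, by limma). That call was also lost when all genes above 0 were tested (adjusted p = 0.0768) and with the replicate block (adjusted p = 0.0519, by limma). The RNA-binding factor Fastkd1, the helicase Twnk and Fastkd5 fell by 0.91, 0.84 and 0.78 in APAP against NC. Tfam, which packages mitochondrial DNA and starts its transcription, gave -0.15 ± 0.12 (adjusted p = 0.389 by limma). Of 77 mitochondrial ribosomal protein mRNAs, 20 fell and 0 rose in APAP against NC (median -0.27), against 13.1% of all genes tested that fell. Of the same 77, 10 fell in AMSC against NC (median -0.12), near the 11.9% of all genes tested. Between AMSC and APAP 0 of the 77 were called (median 0.11), where 3.78% of all genes tested were. Without overlap, 16 were higher and 1 lower in AMSC, where 14.6% and 12.4% of all genes tested were. Of 84 cytosolic ribosomal protein mRNAs, 4 rose and 2 fell in APAP against NC (median 0.28), where 12.8% of all genes tested rose and 13.1% fell.

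Among 15 regulators of mitochondrial biogenesis, 6 rose and 2 fell in APAP against NC, where 12.8% of all genes tested rose and 13.1% fell. In AMSC against NC 8 rose and 1 fell, where 14.1% rose and 11.9% fell. Ppargc1a, the coactivator PGC-1alpha, was at 0.555, 0.50 and 0.582 FPKM in NC, 2.28, 4.44 and 2.70 FPKM in APAP, and 1.63, 1.74 and 1.34 FPKM in AMSC. The groups did not overlap, and Ppargc1a rose in APAP (1.39 ± 0.19, adjusted p = 0.00252 by limma) and in AMSC (0.73 ± 0.11, adjusted p = 0.00282 by limma) against NC. Esrra, the nuclear receptor through which PGC-1alpha acts on respiratory chain genes, fell from 27.5, 29.7 and 27.0 FPKM in NC to 14.5, 17.4 and 18.7 FPKM in APAP and 14.9, 16.8 and 17.7 FPKM in AMSC (-0.71 ± 0.13, adjusted p = 0.00755, and -0.73 ± 0.11, adjusted p = 0.00208, by limma). Myc, Sirt1 and Nrip1 rose by log2 fold changes of 3.10, 1.62 and 1.32 in APAP against NC, and Pparg fell by 1.24 and was higher in AMSC than in APAP (1.39 ± 0.18, adjusted p = 0.0107 by limma), a call lost when all genes above 0 were tested (adjusted p = 0.102 by limma). Nrf1 and Gabpa, which bind many promoters of respiratory chain genes, gave 0.27 ± 0.12 (adjusted p = 0.143 by limma) and -0.32 ± 0.11 (adjusted p = 0.0735 by limma) in APAP against NC.

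The carriers and enzymes that feed the chain were mixed. Cycs (cytochrome c), Cyc1 and Ndufab1 gave -0.02 ± 0.11, 0.02 ± 0.11 and -0.05 ± 0.16 in APAP against NC, none of them called. Of the 12 tested genes on a list of chain genes outside the symbol rule, only the uncoupling protein Ucp2 was called in APAP against NC. It rose by a log2 fold change of 1.11. Of 12 genes of coenzyme Q synthesis, 2 rose (Coq8a by 1.23 and Coq10a by 0.42) and 2 fell (Coq3 by 0.85 and Coq5 by 0.62). Of 18 genes of the citrate cycle and pyruvate dehydrogenase, 3 fell, and these shares are near the 12.8% and 13.1% of all genes tested that rose and fell. Idh3a, a subunit of the NAD-dependent isocitrate dehydrogenase, was at 11.6, 11.1 and 12.7 FPKM in NC, 5.03, 4.10 and 3.92 FPKM in APAP, and 8.33, 10.3 and 7.49 FPKM in AMSC. It fell in APAP (-1.26 ± 0.13, adjusted p = 0.000603 by limma) and was higher in AMSC than in APAP (0.86 ± 0.15, adjusted p = 0.0292 by limma). The latter call was lost when any of 5 libraries was left out, APAP replicates 2 and 3 or AMSC replicates 2, 3 and 4 (adjusted p = 0.0624 to 0.0981 by limma). That call was also lost when all genes above 0 were tested (adjusted p = 0.127 by limma).

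Promoter motifs were counted for the nuclear subunits. In 300-base promoters of RefSeq (GRCm38.p6, 250 bases before to 50 after the start), found for 66 of 84 nuclear symbols, the NRF1 motif (GCGCA and GCGC with any 1 base between them) was present in 25.8% of the subunit genes, 12.4% of all genes tested and 5.19% of all promoters. The ETS motif CCGGAAG was present in 24.2%, 21.7% and 9.93%, and the YY1 motif AAGATGGCG in 10.6%, 4.14% and 1.64%. At least 1 of the 3 was present in 51.5%, 33.8% and 15.1%. Both strands were searched and each motif was counted on its own, although the end of the YY1 motif can overlap the NRF1 motif. The differences between these shares were not tested, and a match describes letters only, not binding. In APAP against NC the median log2 fold change was 0.09 for the 34 tested subunits with a motif and 0.14 for the 29 without one. The 200 bases before the start are shown for Cox6a1, the most abundant nuclear subunit, and for Sdha and Sdhd of complex II, with motif matches on either strand in capitals.
Cox6a1 (5:115348959-115349158, minus strand): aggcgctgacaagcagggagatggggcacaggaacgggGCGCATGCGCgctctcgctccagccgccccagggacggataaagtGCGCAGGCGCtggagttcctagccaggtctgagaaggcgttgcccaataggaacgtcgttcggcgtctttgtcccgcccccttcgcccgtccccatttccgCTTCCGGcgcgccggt
Sdha (13:74350241-74350440, minus strand): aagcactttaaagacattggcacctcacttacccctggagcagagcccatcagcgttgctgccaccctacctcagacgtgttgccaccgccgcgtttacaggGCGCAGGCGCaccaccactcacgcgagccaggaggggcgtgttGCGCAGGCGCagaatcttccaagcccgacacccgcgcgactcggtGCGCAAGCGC
Sdhd (9:50603850-50604049, minus strand): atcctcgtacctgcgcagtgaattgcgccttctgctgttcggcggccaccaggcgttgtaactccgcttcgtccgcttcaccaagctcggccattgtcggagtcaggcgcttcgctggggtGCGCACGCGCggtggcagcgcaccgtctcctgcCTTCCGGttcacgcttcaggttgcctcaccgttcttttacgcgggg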

How the data were processed

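Liver RNA of 9 mice was sequenced with a SMARTER mRNA-Seq kit, and the authors deposited 1 table of FPKM values, with GRCm38 and mm10 named in the submitters' processing notes. The aligner, the counter, its use of strand and its handling of reads that match several places are not given in the sources used here. Every value came out as a whole number of reads (100% within 0.1 reads), which gave the depth, and 0 columns were without a sample. Reads are not independent molecules, so depth covers counting error only.

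Values were tested as log2(FPKM + 1) with limma 3.58.1 (R 4.3.3; trend, 2 groups of 3 libraries per fit) over genes averaging 1 FPKM or more, with Benjamini-Hochberg adjustment over all of them and a threshold of 0.05. Fold changes are on that scale and understate the change of low genes. The labels give the libraries of a group as separate samples, and p-values measure the spread between them, part of which may be technical.

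Groups and replicate numbers came from the labels. NC and APAP libraries of the same number had r across genes of 0.21, 0.16 and 0.38, and those of different numbers at most 0.09. Across other groups, different numbers reached as high, at 0.41 (APAP replicate 3, AMSC replicate 2) and 0.38 (NC replicate 3, AMSC replicate 2). The main fits used no pairing, and the replicate block is an alternative only. A pairing by number would rest on the data alone. No label names what a number shares, and the title of NC replicate 3 has another date and another number than that of APAP replicate 3. Across the nuclear subunits r of the same-numbered NC and APAP libraries was -0.003, 0.60 and -0.19. Alternatives were another pseudocount, other filters, equal FPKM sums with or without the mitochondrial genome, quantile normalization, 1 fit of all libraries, protein-coding genes alone, a replicate block, no trend, removal of a length trend and leaving out each library. Adding the chromosome 1 copies to the mitochondrial genes and voom on the recovered reads were chosen after seeing the data. The members and gene lists were chosen with earlier results of these data known.

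Named were the mitochondrial and complex II genes, called nuclear subunits, isoform pairs, the highest and lowest nuclear subunit of each complex, up to 4 called genes per list and comparison, and Ppargc1a, Tfam, Nrf1, Gabpa, Esrra, Ndufab1, Cyc1 and Cycs. Any other gene named was picked with its values in view.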

Additional observations from a re-analysis of the deposited data

How the results depend on the processing

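Subunit mRNAs called in APAP against NC numbered 1, and 0 with all genes above 0, 2 with a mean of at least 5 FPKM, the replicate block, no trend or voom, 3 with quantile normalization, 4 with the length trend removed, 6 with block and length, 7 with equal sums outside the mitochondrial genome, 9 with equal sums (TPM), and 0 to 4 without 1 library. In AMSC against NC they numbered 0, and 1 with protein-coding genes, block or voom, 4 with quantile normalization, 5 with TPM or the length trend removed, 8 with equal sums outside the mitochondrial genome and 0 to 1 without 1 library. In AMSC against APAP they were 0 under every alternative run. With equal sums the median of all genes was -0.26 in APAP against NC, and -0.24 outside the mitochondrial genome. The share of all genes called with equal sums is not given here, so these counts cannot be set against it.

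Genes called of all tested were 1318 for APAP against NC with a mean of at least 5 FPKM, and 1353 to 2749 without 1 library. For AMSC against APAP they were 53 with all genes above 0, 178 with a mean of at least 5 FPKM, 624 in 1 fit of all libraries and 100 to 366 without 1 library. For AMSC against NC they were 1509 with a mean of at least 5 FPKM, 847 with the block, 752 with block and length and 1678 to 2356 without 1 library. Assembly factors that fell in APAP against NC numbered 13 with a mean of at least 5 FPKM, 34 with TPM and 14 to 21 without 1 library. In AMSC against NC they numbered 12 with all genes above 0, 30 with TPM, 33 with equal sums outside the mitochondrial genome, 2 with the block, 1 with block and length and 13 to 16 without 1 library. The block of that comparison keeps 2 libraries a group. The assembly factor counts with equal sums likewise have no share of all genes beside them.

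The nuclear median was -0.17 (TPM) and -0.15 (outside the mitochondrial genome) for APAP against NC, -0.15 and -0.18 for AMSC against NC, and 0.01 to 0.25, -0.18 to 0.05 and -0.03 to 0.13 without 1 library for APAP against NC, AMSC against APAP and AMSC against NC. The mitochondrial median of APAP against NC was 0.0551 with TPM, 0.0757 outside the mitochondrial genome and -0.0273 with quantile normalization, and without 1 library the medians were 0.25 to 0.52, -0.71 to -0.30 and -0.31 to 0.03. The summed nuclear level of APAP over NC was 1.11, and 0.892 with TPM and 0.904 outside the mitochondrial genome, that of AMSC over NC was 1.06, 0.914 and 0.895, and the mitochondrial sum of APAP over NC was 1.35, 1.09 and 1.11. The cause of these shifts was not tested.

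Of the called results of named genes, 26 of 33 kept their call under every alternative run in APAP against NC, 0 of 4 in AMSC against APAP and 4 of 30 in AMSC against NC, and 0 reversed. With the copies on chromosome 1 added, the mitochondrial median was 0.47 in APAP against NC. AMSC numbers 2 and 3 occur in the other groups. Across all genes tested, same-numbered libraries correlated at -0.10 and -0.29 with APAP and -0.20 and -0.31 with NC. Across the nuclear subunits r was 0.44 and -0.53 with APAP and 0.39 and 0.10 with NC. Whether libraries of the same number share more than the number was not tested. The 95% interval lay within 1.5-fold for 46, 54 and 72 of 78 nuclear subunits in APAP against NC, AMSC against APAP and AMSC against NC, and levels of mt-Atp8 rest on 5 to 42 reads a library.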

Other observations

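The mitochondrial genome also encodes 22 tRNAs and 2 rRNAs, which serve to translate its mRNAs. These values were looked at after the other results were seen. The SMARTER mRNA-Seq kit is made for mRNA, so reads in these genes cannot be assigned to mature tRNAs and rRNAs or to longer transcripts that hold them. The changes given here are of such reads, and levels of mature tRNA or rRNA were not tested. Of the 24 genes, 19 were tested, and 9 rose and 0 fell in APAP against NC, where 12.8% of all genes tested rose. Those on the minus strand, the strand of mt-Nd6, counted 5 called of 7 tested tRNAs with a median log2 fold change of 1.53 (mt-Te, mt-Tc, mt-Tn, mt-Ty and mt-Ta), and those on the plus strand 3 of 10 with a median of 0.57 (mt-Tl1, mt-Tw and mt-Ts2). The difference between the strands was not tested. Whether the counting used strand is not given, so reads of the 2 strands may not be told apart in these genes. In AMSC against NC 9 of 19 rose and 0 fell, where 14.1% of all genes tested rose. In AMSC against APAP 1 fell, where 2.14% of all genes tested fell.

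mt-Tl1, a leucine tRNA directly after mt-Rnr2, was at 34.4, 23.1 and 27.9 FPKM in NC, 297.2, 310.9 and 175.6 FPKM in APAP, and 131.0, 86.2 and 104.7 FPKM in AMSC. The groups did not overlap (APAP against NC 3.13 ± 0.25, adjusted p = 0.000215, and AMSC against APAP -1.25 ± 0.25, adjusted p = 0.0413, by limma). The large rRNA mt-Rnr2 was at 339.6, 208.0 and 362.1 FPKM in NC, 859.2, 820.8 and 676.0 FPKM in APAP, and 538.9, 485.7 and 417.5 FPKM in AMSC (APAP against NC 1.40 ± 0.23, adjusted p = 0.00442 by limma). The small rRNA mt-Rnr1 gave 0.21 in APAP against NC (adjusted p = 0.535 by limma) and 0.74 in AMSC against NC (adjusted p = 0.0338 by limma).

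Of 34 Slc25 carriers of the inner membrane, 8 rose and 4 fell in APAP against NC, where 12.8% of all genes tested rose and 13.1% fell. In AMSC against NC 7 rose and 5 fell, where 14.1% rose and 11.9% fell. In AMSC against APAP 2 fell, where 2.14% of all genes tested fell. Of 8 genes of the hypoxia list, 0 were called in APAP against NC (1 at an unadjusted p under 0.05), where 25.9% of all genes tested were. Only Bnip3 was called in AMSC against APAP, where it rose (log2 fold change 0.69) and 1.64% of all genes tested rose.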
